A study of Mus musculus with 2 samples.

Results

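The nuclear genes for the subunits of oxidative phosphorylation were compared between SFZ cells, from the superficial zone of articular cartilage, and costal chondrocytes (CC). Members were taken by symbol, as genes named for subunits of complex I (*Nduf*), complex II (*Sdh*), complex III (*Uqcr* and *Cyc1*), complex IV (*Cox4* to *Cox8*) and complex V (*Atp5*). This gave 81 of 18193 named genes, measured by 164 of the 34945 probe sets that name a single gene. Both cell types came from ICR mice at postnatal day 4, the SFZ cells from the joint surfaces of femur and tibia and the CC from ribs, and both were cultured in DMEM with 10% FBS. The labels name no transgene or treatment, and the number of animals behind each culture is not stated. Biotin-labelled cRNA from 100 ng of total RNA was hybridized to 1 Affymetrix mouse array per cell type, so nothing here has a replicate check and no tests were made.

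Oxidative phosphorylation takes place in the inner mitochondrial membrane. Complexes I and II pass electrons from NADH and succinate to coenzyme Q, complex III passes them on to cytochrome c, and complex IV, cytochrome c oxidase, hands them to oxygen. Complexes I, III and IV pump protons as they work, and complex V, the ATP synthase, lets the protons return and makes ATP. Most subunits have a single gene used in all cells, but several subunits of complex IV have a second isoform made mainly in striated muscle or in testis. Cartilage has no blood vessels, and its chondrocytes are known to draw much of their ATP from glycolysis.

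The deposited values are MAS5 signals, linear intensities of a probe set, a group of short oligonucleotides that read the 3′ end of a transcript. Chemosensory receptor genes set the background level, 28.2 for SFZ cells and 26.0 for CC, and a ratio against a signal at or under background is given as a bound. Ratios are SFZ over CC throughout. For the 10895 named genes above both background levels, the log2 ratio had a median of -0.18, and 66.9% of these genes had a ratio under 1. Scaling both arrays to equal medians shifted that median by 0.19 and quantile normalization by 0.23. Values called relative below are log2 ratios minus the median of all these genes under the same scaling.

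The cartilage markers *Col2a1*, at 8251 (SFZ cells) and 9074 (CC), and *Acan*, at 7772 and 5588, were bright on both arrays. Of 11 cartilage markers 2 were higher in SFZ cells and none in CC (summed signals of 78326.7 and 60460.5). The 2 were *Matn1*, at 9989 and 2692, and *Snorc*, at 3818 and 1754. The SFZ/CC ratio was over 1 for 7 of the 11 and under 1 for 4, with a median log2 ratio of 0.48. Among the superficial zone markers *Prg4* was at 323 and 73.6, and *Gdf5* at 93.1 and 74.2. Of the 7 markers of that zone 1 was higher in SFZ cells, and *Vcam1*, at 35.7 and 354, and *Thbs4*, at 108 and 388, were higher in CC (summed signals of 3061 and 4182). Of 24 skeletal muscle markers, 22 were higher in CC, and their signals summed to 455 (SFZ cells) and 49324 (CC). In SFZ cells 18 of the 24 were at or under background, *Myog*, *Myod1* and *Ckm* included, and in CC none was. Of 8 adipocyte markers 6 were higher in CC (summed signals of 1048 and 11970). Of 7 brown adipocyte markers *Dio2*, at 24.6 and 120, was higher in CC, while *Ucp1* was under background on both arrays (summed signals of 252 and 384). Of 6 leukocyte markers 3 were higher in CC, *Lyz2*, at 232 and 1432, *Cd14* and *Csf1r* (summed signals of 406 and 1927). *Ptprc*, at 18.1 and 29.8, was just above background in CC, and *Itgam* was under it on both arrays. Of 6 cardiac muscle markers *Tnnt2*, at 4.94 and 1625, and *Myh7*, at 6.83 and 139, were higher in CC (summed signals of 32.0 and 1784). The other 4 were under background on both arrays. The CC sample thus carried transcripts of 3 leukocyte markers at higher signals, and of muscle and adipocytes at far higher signals, than SFZ cells. Their part in the values below was not tested, and in these bulk samples fewer cells of a type and less RNA per cell cannot be told apart.

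Most subunit genes had high signals on both arrays and a signal a little lower in SFZ cells. Of the 81 genes, 76 were above background on both arrays, *Cox6b2*, *Cox7a1* and *Cox8b* on the CC array alone, and *Cox7b2* and *Ndufb4* on neither. *Ndufb4* was read by a single probe set, at 11.3 (SFZ cells) and 18.6 (CC). A mean signal over 1000 was reached by 66 of the 81 genes. In 72 of the 76 the SFZ/CC ratio was under 1, a share of 94.7% against 65.0% of all 1722 genes with a mean signal over 1000 (bright genes). The median ratio was 0.769, or -0.38 on the log2 scale, with quartiles of -0.50 and -0.23. Relative to all genes the median was -0.20, and 86.8% of the members lay below the all-gene median, against 43.4% of the bright genes. After either scaling 66 members still had a ratio under 1. The SD of the members was 0.25 on the log2 scale, against 0.49 for the bright genes, 0.24 for mitochondrial ribosomal proteins, 0.24 for proteasome subunits and 0.18 for cytosolic ribosomal proteins. A narrow spread was thus shared with other large complexes, and also with genes of the tricarboxylic acid cycle (0.27) and of mitochondrial import (0.26).

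Single members hardly reached a ratio of 2. By a signal over 100 and a ratio over 2, no member probe set was higher in SFZ cells, where 0.947% of all 34945 probe sets were, and 1 of 164, or 0.610%, was higher in CC, where 4.33% of all were. Among probe sets with a mean signal over 1000, the backgrounds were 1.92% in SFZ cells and 3.27% in CC, and 1 of 110 bright member probe sets passed. With the brightest probe set standing for each gene no member passed, against backgrounds of 1.18% and 5.41%. At a ratio over 1.5, 18 member probe sets of 16 genes, or 11.0%, were higher in CC, and the background was 8.7%. Of the bright member probe sets 14.5% passed that lower threshold, against 10.8% of all bright probe sets. Members with a ratio a little under 1 were thus many, while their shares past a ratio of 2 were under the background and those past 1.5 were near it.

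The probe set past the threshold belongs to *Cox6b1*, which encodes a small subunit on the outer face of complex IV. It had a signal of 1297 in SFZ cells and 2608 in CC, and CC was 2.01-fold higher. The brighter probe set of *Cox6b1* had signals of 2658 and 4993, 1.88-fold higher in CC. After either scaling neither reached a ratio of 2.

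**Figure D1:**
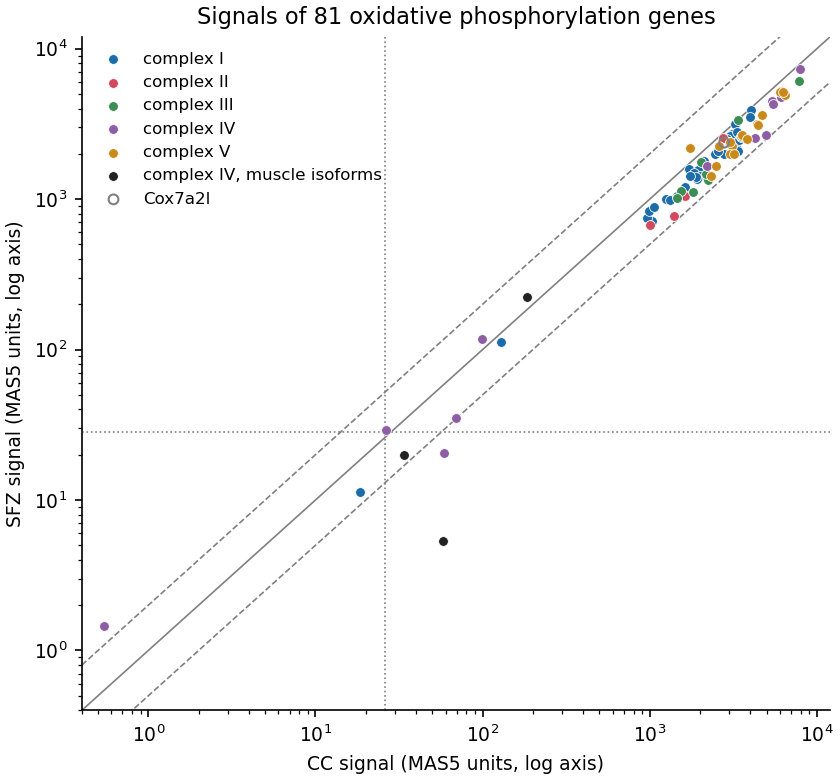
MAS5 signals of the member genes on the CC array (horizontal axis) and the SFZ array (vertical axis), both log scales, by the brightest probe set of each gene and coloured by complex. The dotted lines are the backgrounds, 26.0 for CC and 28.2 for SFZ cells, and the dashed lines a ratio of 2 in either direction. Most points lie just below the solid line of equal signals, toward CC, and the muscle isoforms *Cox7a1* and *Cox8b* lie below the SFZ background.

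By complex, the median log2 ratio was -0.32 for complex I (33 genes above background), -0.61 for complex II (4 genes), -0.46 for complex III (9 genes), -0.36 for complex IV without its muscle isoforms (12 genes) and -0.43 for complex V (17 genes). Relative to all genes these were -0.14, -0.43, -0.28, -0.18 and -0.25. The quartile ranges over genes overlapped between every pair of complexes, for complexes I and II only just, so the complexes were not set apart by the spread among their genes. The relative median of complex I was -0.25 when each gene was given the median over its probe sets, and those of complexes IV and V were -0.30 and -0.39 after quantile normalization. All the medians of these 5 complexes stayed under that of all genes in every alternative tried. Median scaling leaves a relative median unchanged by construction, so it was no check on this. Raising signals to background also left these 5 at the same values.

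**Figure D2:**
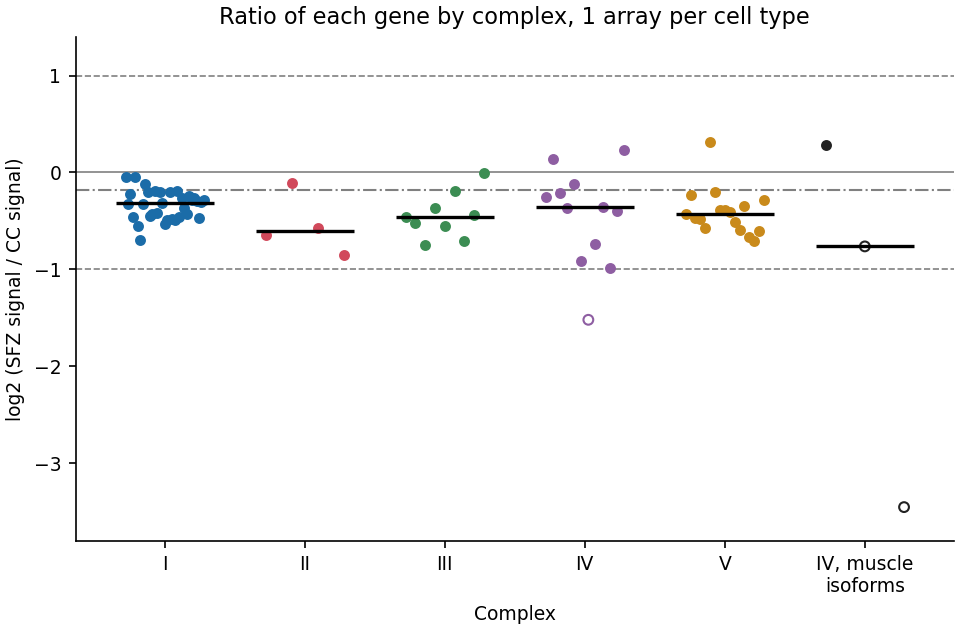
SFZ/CC ratios on the log2 scale for the genes of each complex, 1 array per cell type, with 1 point per gene by its brightest probe set and a bar at each median; *Cox7a2l*, counted in no complex, is not drawn. Open points have an SFZ signal under background, the dash-dotted line marks the median of all named genes at -0.18 and the dashed lines a ratio of 2 in either direction. All 33 points of complex I lie under 0, while *Atp5g1* of complex V lies above 0.

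In complex I all 33 genes above background had a ratio under 1, from 0.615 to 0.967. The 6 measured core subunits, of the part that holds the flavin and the iron-sulfur clusters, had a median log2 ratio of -0.33. The 27 accessory subunits had one of -0.32. *Ndufv1*, which encodes the NADH-binding flavoprotein subunit, was at 1048 (SFZ cells) and 1455 (CC), a ratio of 0.721. Its partner *Ndufv2*, an iron-sulfur protein, was at 2086 and 2567. *Ndufs1*, which encodes the largest subunit of the complex, was at 751 and 967, a ratio of 0.776. The core genes ran close together, with *Ndufs3* at 0.741, *Ndufs8* at 0.813 and *Ndufs7*, near the coenzyme Q site, at 0.831.
Among the accessory subunits the signals were closest to equal for *Ndufa1*, at 3923 and 4058, and *Ndufa2*, at 3139 and 3245, and both turned above 1 after either scaling. The lowest ratio was that of *Ndufa4*, at 2075 and 3373. This gene carries a complex I name, but its protein has since been assigned to complex IV, where a ratio of 0.615 would lie beside those of *Cox6b1* and *Cox6c*. *Ndufb1*, a small membrane subunit, was at 113 and 129.

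Complex II, succinate dehydrogenase, also belongs to the tricarboxylic acid cycle and is encoded wholly in the nucleus. *Sdha*, which encodes the flavoprotein that oxidizes succinate, was at 1041 (SFZ cells) and 1626 (CC), a ratio of 0.640. *Sdhb*, the iron-sulfur subunit, was at 2538 and 2729, a ratio of 0.930 that turned above 1 after either scaling. The genes of the membrane anchor were lower in SFZ cells, *Sdhc* at 678 and 1006 and *Sdhd* at 775 and 1404. The ratio of *Sdhd* was 0.552, but its other probe set, at 478 and 489, was close to equal. The low median of complex II thus rests on few genes, and one of them had probe sets that differed.

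In complex III the catalytic subunits were *Cyc1*, cytochrome c1, at 1124 (SFZ cells) and 1547 (CC), and *Uqcrfs1*, the Rieske iron-sulfur protein, at 1120 and 1822. Their ratios were 0.726 and 0.615. The core proteins *Uqcrc1*, at 1470 and 2157, and *Uqcrc2*, at 1769 and 2018, had ratios of 0.681 and 0.876. The small subunits took both ends of the range, from *Uqcr11* at 1330 and 2239, a ratio of 0.594, to *Uqcrq* at 3371 and 3374. *Uqcrq*, which encodes a coenzyme Q-binding protein, was thus equal on the arrays as deposited, and turned above 1 after either scaling.

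In complex V the 5 genes of the F1 head, the part that makes ATP, all had a ratio under 1, with a median log2 ratio of -0.47. *Atp5b*, which encodes the catalytic beta subunit, was at 5138 (SFZ cells) and 6055 (CC), a ratio of 0.849. *Atp5a1*, the alpha subunit, was at 2633 and 3538, and the stalk genes *Atp5c1*, *Atp5d* and *Atp5e* had ratios of 0.723, 0.718 and 0.673. The lowest ratio of the complex was that of *Atp5mpl*, a small membrane subunit, at 1433 and 2341. Next to it *Atp5md*, which is needed for the dimer of the synthase, was at 2010 and 3183.
The c ring, the rotor that protons turn, is encoded by 3 genes whose mature proteins are the same. *Atp5g1* was at 2179 (SFZ cells) and 1749 (CC), and its ratio of 1.25 was the highest of all members above background on both arrays. *Atp5g2*, at 2246 and 2582, and *Atp5g3*, at 4957 and 6488, had ratios of 0.870 and 0.764. *Atp5g1* was the only one of the c ring genes above 1 as deposited, and with the median over probe sets *Atp5g2* was as well. That turn came from a dim probe set of *Atp5g2* at 36.7 and 23.0, with the CC signal under background.

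In complex IV the subunits shared by most tissues had signals over 1000, except *Cox7c*. *Cox4i1*, the usual isoform of the largest nuclear subunit, was at 4496 (SFZ cells) and 5375 (CC), a ratio of 0.837. *Cox5a* and *Cox5b*, which encode subunits on the matrix side, were at 5264 and 6078 and at 4267 and 5492. Above both backgrounds, the ratio was lowest for *Cox7c*, at 35.1 and 69.6, on a probe set near background, then for *Cox6b1* and *Cox6c*, the latter at 2551 and 4268. The isoforms of other tissues had signals of at most 117. *Cox4i2*, the isoform of lung, was at 29.2 and 26.5, and the testis isoform *Cox8c* at 117 and 99.4. The direction of *Cox8c* turned toward CC with the median over its probe sets, the other being at 26.6 and 34.9. *Cox6b2*, the testis partner of *Cox6b1*, was under background in SFZ cells and at 58.7 in CC, at least 2.08-fold higher. Its CC signal was under the minimum of 100.

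The isoforms of heart and skeletal muscle went apart from each other. *Cox6a2*, alone among them above background on both arrays, was at 224 (SFZ cells) and 184 (CC), a ratio of 1.22 toward SFZ cells. Its other probe set, at 54.4 and 30.9, had a ratio of 1.76 in the same direction. *Cox7a1* was under background in SFZ cells at 20.0 and at 33.9 in CC, at least 1.20-fold higher. *Cox8b* was at 5.30 in SFZ cells, under background, and at 58.0 in CC, at least 2.06-fold higher, with a CC signal under 100. Both directions were thus present among these isoforms, while *Actc1*, encoding an actin of embryonic muscle, was at 28.7 and 8228, and *Ckm*, muscle creatine kinase, at 19.9 and 291. The median log2 ratio of the isoforms was -0.76, which rests on bounds, and relative to all genes it was -0.59, or -0.09 with signals raised to background.
The paralogs used outside muscle had signals over 1000 on both arrays. *Cox6a1* was at 7280 (SFZ cells) and 7881 (CC), a ratio of 0.924 that turned above 1 after median scaling. *Cox7a2* was at 4749 and 6064, and *Cox8a* at 1667 and 2200. Their ratios of 0.783 and 0.758 lay near the median of all members, so the muscle isoform was above its paralog in ratio for *Cox6a2*, and below it for *Cox8b* against *Cox8a*. Of the muscle genes that share a mitochondrial role with these isoforms, myoglobin (*Mb*) was at 12.0 and 90.5, *Fabp3*, a fatty acid carrier, at 116 and 157, and mitochondrial creatine kinase (*Ckmt2*) was under background on both arrays. *Perm1*, a regulator of muscle mitochondria, went the other way, at 35.2 and 16.8, at least 1.35-fold higher in SFZ cells.

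**Figure D3:**
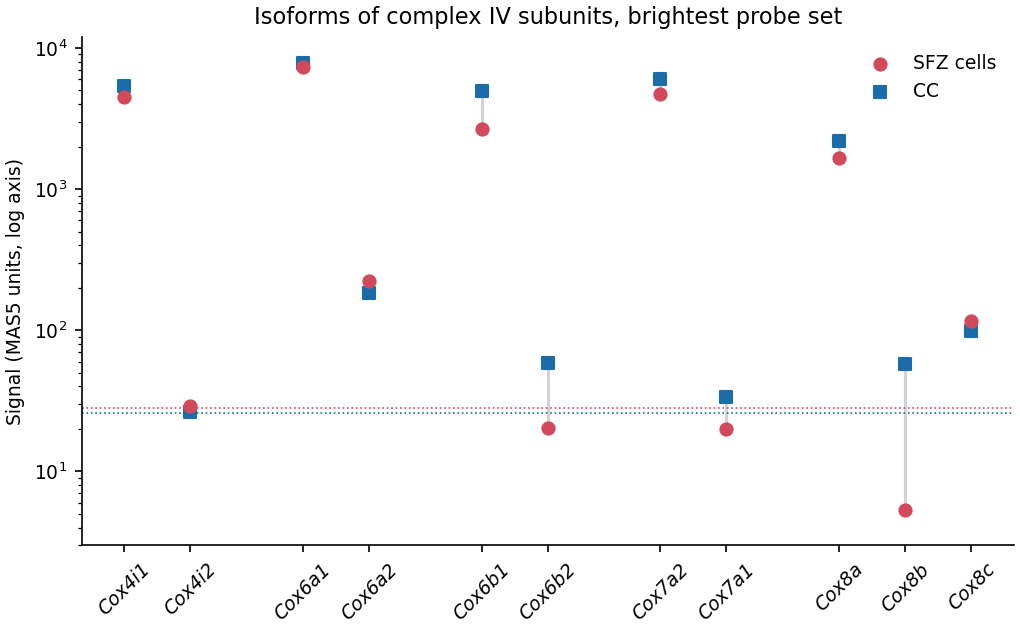
MAS5 signals of the tissue isoforms of complex IV subunits and of their paralogs, with a log axis and 1 array for each cell type. The background levels are drawn as lines; *Cox6a1*, *Cox7a2* and *Cox8a* are over 1000 on both arrays, *Cox6a2* is at 224 and 184, and *Cox7a1* and *Cox8b* are under background in SFZ cells only.

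Promoter windows, the 250 bases before the annotated start, were taken from RefSeq on GRCm38.p6. Of the 81 genes 66 had one, with 71 windows in all. Those of *Cox6a1* (a paralog of a muscle isoform), *Cox6b1* (with a probe set past the threshold) and *Cox8b* (a muscle isoform) are shown. Each is printed 5′ to 3′ on the strand of the gene. Capitals mark the core letters of NRF1 in *Cox6a1*, of the ETS family, read on the other strand, in *Cox6b1* and an E-box in *Cox8b*. The *Cox6a1* window also holds the ETS core, which is left in lower case.
Cox6a1 promoter, chr5:115348959-115349208, minus strand: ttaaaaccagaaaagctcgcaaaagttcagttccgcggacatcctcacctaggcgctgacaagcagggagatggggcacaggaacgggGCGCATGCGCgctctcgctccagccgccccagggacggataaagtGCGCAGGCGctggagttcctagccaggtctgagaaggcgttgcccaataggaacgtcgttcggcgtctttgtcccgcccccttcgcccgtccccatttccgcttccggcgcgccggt
Cox6b1 promoter, chr7:30626115-30626364, minus strand: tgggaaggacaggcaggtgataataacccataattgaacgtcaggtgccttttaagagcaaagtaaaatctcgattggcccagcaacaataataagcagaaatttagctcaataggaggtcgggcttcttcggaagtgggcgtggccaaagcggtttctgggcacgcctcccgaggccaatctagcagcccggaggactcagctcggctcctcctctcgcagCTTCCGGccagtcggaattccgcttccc
Cox8b promoter, chr7:140900447-140900696, minus strand: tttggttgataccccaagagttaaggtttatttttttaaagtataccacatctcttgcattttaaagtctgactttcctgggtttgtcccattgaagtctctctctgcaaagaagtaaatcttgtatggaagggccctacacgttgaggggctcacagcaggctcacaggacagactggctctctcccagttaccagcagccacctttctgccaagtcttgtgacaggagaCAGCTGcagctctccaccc
NRF1 and the ETS factor GABP are known activators of respiratory genes, and the E-box CAGCTG is bound by muscle regulators such as MyoD. The *Cox6a1* window held 3 matches of the NRF1 core, from 162 to 117 bases before the start, and overlapping matches arise because the core is nearly its own reverse complement. The *Cox6b1* window held 1 ETS core at 28 bases before the start, and the *Cox8b* window 1 E-box at 19 bases. On both strands the NRF1 core GCGCANGCG was in 18.3% of member windows and in 5.16% of all 32851 windows. The ETS core CCGGAAG was in 16.9% against 6.91%, and the YY1 core AANATGGC in 8.45% against 3.91%. The ERR core TCAAGGTCA was in only 1 of 71 member windows, that of *Atp5g3* (1.41% against 0.387%). For the muscle motifs the order was the other way, with CAGCTG in 8.45% against 13.0% and the MEF2 motif in 0 of 71 member windows against 2.92%. Median GC content was 56.4% in member windows and 52.4% in all, and its part in these shares was not tested. A match is a run of letters and was not measured as a binding site.

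Where a gene had several probe sets above background on both arrays, they mostly lay on the same side of a ratio of 1. This held for 39 of 42 such genes, and the median range between the probe sets of a gene was 0.16 on the log2 scale. The exceptions were *Atp5j2*, *Cox7a2l* and *Ndufa10*. *Atp5j2*, a membrane subunit of complex V, had ratios of 0.701 and 0.661 on bright probe sets and of 1.30 on a dim one at 48.4 and 37.1. For *Ndufa10*, an accessory subunit of complex I, the dim probe set was at 44.1 and 43.8 and the bright one at 1558 and 1954. *Cox7a2l* encodes a factor that joins complexes III and IV and was counted in no complex. Its probe sets were at 2374 and 2787, at 2637 and 2325 and at 1839 and 1834, so its direction was not settled.

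Other gene groups were set beside the members by their median log2 ratios over genes above background on both arrays. Cytosolic ribosomal protein genes were at -0.06, and the members differed from them by -0.32. Mitochondrial ribosomal proteins were at -0.24 and proteasome subunits at -0.32, differences of -0.14 and -0.06. Of the proteasome subunits 33 of 35 had a ratio under 1. The median of the subunit genes was thus nearer to that of the proteasome than to that of the cytosolic ribosome.
The enzymes of the tricarboxylic acid cycle, which feed the chain with electrons, had a median of -0.37, and all 13 had a ratio under 1. *Cs*, citrate synthase, was at 991 (SFZ cells) and 1514 (CC), and *Mdh2*, malate dehydrogenase, at 4179 and 5313. *Sucla2*, a subunit of succinyl-CoA ligase, was at 1118 and 1908. Assembly factors of the complexes had a median of -0.21 over 42 genes, with 31 under 1. *Uqcc2*, for complex III, was at 1854 and 2229, and *Cox17*, the copper chaperone of complex IV, at 1636 and 1831. None of the cycle enzymes, assembly factors or carriers was past the thresholds in either direction.

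The electron carrier cytochrome c (*Cycs*) was close to equal at 5106 and 5184, unlike *Cyc1*, which passes electrons to it. The coenzyme Q and carrier genes together had a median of -0.13. *Slc25a4*, the ADP/ATP carrier of heart and muscle, was at 6610 and 6786. In the same group of ADP/ATP and phosphate carriers, *Slc25a3* was at 4539 and 5769 and *Slc25a5* at 4141 and 5410. The group as counted also held the outer-membrane porin genes *Vdac1*, *Vdac2* and *Vdac3*. Of its 6 genes above background 4 had a ratio under 1 and 2 over 1, with a median log2 ratio of -0.15. The 2 over 1 were *Vdac1* (1.002) and *Vdac3* (1.10). The carriers *Slc25a3* (0.787), *Slc25a4* (0.974) and *Slc25a5* (0.765) were under 1, as was *Vdac2* (0.833). Among the regulators of mitochondrial biogenesis, *Nrf1* was at 106 and 107, and *Tfam*, which packs and transcribes mitochondrial DNA, at 579 and 590. *Yy1* was at 1775 and 1892 and *Gabpa* at 765 and 970. Of 19 regulators 1 was past the thresholds, near the share of 5.41% of all genes higher in CC. This was *Ppargc1b*, a coactivator of the PGC-1 family, at 29.2 (SFZ cells), just over the background of 28.2, and 144 (CC). Its relative *Ppargc1a* was at 49.0 and 86.2 and *Esrra*, which works with both, at 126 and 159. The ratios of *Nrf1*, *Yy1*, *Gabpa* and *Esrra* thus ran from 0.789 to 0.992. On the log2 scale *Gabpa* (-0.34) and *Esrra* (-0.33) lay between the quartiles of the members, -0.50 and -0.23. *Nrf1* (-0.01) and *Yy1* (-0.09) lay above them. Other regulators lay toward SFZ cells, among them the mitochondrial transcription factors *Tfb1m*, at 471 and 372, and *Tfb2m*, at 892 and 742, the helicase *Twnk*, at 235 and 190, and *Esrrb*, with a ratio of 2.09 at an SFZ signal of 73.3, under the minimum of 100. The median log2 ratio of the 16 regulators above background on both arrays was -0.16. Of the subunits encoded in the mitochondrial genome, *ND5* of complex I, named after its value was seen, was at 6307 and 5772, a ratio of 1.09 toward SFZ cells, the opposite side from the nuclear subunits of that complex.

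**Figure D4:**
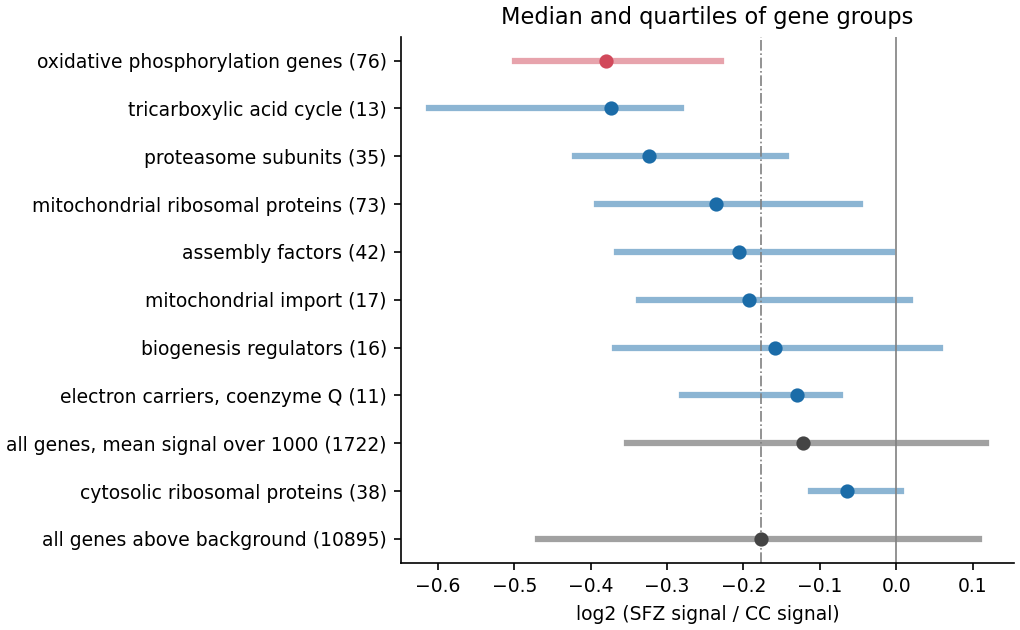
Medians of the log2 SFZ/CC ratio, with quartiles as bars, for the member genes and for other gene groups over genes above background on both arrays. The member median of -0.38 lies beside those of the tricarboxylic acid cycle (-0.37) and the proteasome (-0.32) and under that of cytosolic ribosomal proteins (-0.06); bars show spread among genes, not error, and the dash-dotted line is the all-gene median of -0.18.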

How the data were processed

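RNA of SFZ cells and CC was measured on 1 Affymetrix array each. The authors deposited MAS5 signals, linear intensities per probe set, which were used as deposited. Of the MAS5 run, the version and scaling target were not given in the sources used here. Control probe sets were left out, which left 45037. Probe sets with a single gene in the platform annotation were named, and all 81 member symbols matched RefSeq (GRCm38.p6) unchanged. A further 9 probe sets name a member among several genes and were not used. The array names no genome build, so its probe sets have no coordinates here.

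Background was taken on each array from 86 probe sets of chemosensory receptors, at their 95th percentile, and 50.0% and 54.0% of probe sets lay above it. A probe set was counted as higher where its signal was over 100 and its ratio over 2. Each gene was represented by its brightest probe set (mean log2 signal). Complex medians left out genes that exceeded background on neither array. Precision is limited by the number of arrays, and no error or p-value can be given.

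The named genes were the muscle isoforms, their paralogs and other tissue isoforms, the core subunits, and members with a probe set past the thresholds. They also took in the extremes of each complex, members whose probe sets disagreed, and the brightest or passing genes of other lists. A few brought in for contrast were chosen after their values were seen. The members, lists and rules were chosen with earlier results of these data known. The counting was tested on simulated data. Alternatives were median scaling, quantile normalization, adding 64 to each signal, raising signals to background, other thresholds, probe sets that can bind several transcripts left out, and other rules for combining probe sets. Python 3.11.15, numpy 2.4.6, pandas 2.3.3 and matplotlib 3.10.9 were used.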

Additional observations from a re-analysis of the deposited data

How the results depend on the processing

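The count of member probe sets higher in CC, 1 as deposited, was 0 after median scaling, 0 after quantile normalization, 0 after adding 64 to each signal, 0 with a threshold of 3, 18 with a threshold of 1.5 and 6 with no minimum signal. The count higher in SFZ cells was 0 in every alternative tried. Of 56 relative medians of the complexes under alternatives, 7 moved by 0.1 or more on the log2 scale and 1 changed sign. Those under median scaling could not move, because the all-gene median shifts with them. Where a gene took the median of its probe sets, complex I was at -0.25 and complex II at -0.32. After quantile normalization, complex IV without muscle isoforms was at -0.30 and complex V at -0.39. The muscle isoforms were at -0.0879 with signals raised to background, -0.0920 with 64 added, and 0.47 over genes above background on both arrays, a setting chosen after seeing the data that leaves only *Cox6a2*. Thresholds change counts by construction, and elsewhere the cause was not tested. Of 261 values of single genes 104 moved and 12 changed sign. Median scaling adds the same 0.19 to every gene, so its 44 moves are by construction. No paired analysis was possible because there was 1 array per cell type. Low signals limit *Cox7c*, *Cox4i2* and the muscle isoforms *Cox7a1* and *Cox8b*, which lie near or under background.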
